A study of Rattus norvegicus with 29 samples.

Results

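The transcripts described here encode the class II molecules of the rat major histocompatibility complex and their chaperone. They are Cd74 (the invariant chain), RT1-Da and RT1-Db1 (the alpha and beta chains of RT1-D), and RT1-Ba and RT1-Bb (the alpha and beta chains of RT1-B). Every probe set of the Affymetrix rat genome U34 A array whose only gene symbol in the platform annotation was 1 of these 5 was taken, which gave 16 of the 8740 probe sets that are not controls, for 5 of the 4736 genes so named. Cd74 had 4 probe sets, RT1-Da 2, RT1-Db1 2, RT1-Ba 3 and RT1-Bb 5. The genes were chosen by their levels at the 3 ages, measured on these arrays, so those levels and their differences are given as a description, with no p-value, and any count of them past a threshold is fixed in part by that choice.

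The study hybridised total RNA of hippocampal CA1, taken from male Fischer rats, to 29 single-colour arrays, to follow gene expression in hippocampal aging. There were 9 young arrays (4 months), 10 mid-aged arrays (14 months) and 10 aged arrays (24 months). The rats of every age had been trained on a pair of tasks, labelled SWM and OMT, and tissue was taken 24 hours after a 7-day sequence, so no untrained group stands beside them. The labels number the samples within an age but do not say that an array holds RNA of 1 rat, and young 1 is not among the samples analysed here. P-values therefore measure the spread between these samples, and it is the number of arrays that limits precision. In tissue RNA, more cells that carry a transcript and more transcript per cell cannot be told apart.

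Class II molecules carry peptides from ingested proteins to the cell surface, where CD4 T cells read them. An alpha and a beta chain pair in the endoplasmic reticulum, and the invariant chain fills their groove until lysosomal proteases degrade it and the DM molecule exchanges the remaining peptide. In the brain the chains are known mainly from microglia and from macrophages at its borders. The class II genes are also known for a shared promoter layout, in which X and Y boxes bind RFX and NF-Y proteins and recruit the coactivator CIITA.

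That layout is shown here as background, and its part in how the 5 genes varied was not tested. The sequences below are 90-base stretches of the RefSeq promoter windows of the GRCr8 assembly, on the strand of the gene, with capitals marking the core of the X box (GCAAC) and of the Y box (GATTGG). They lie upstream of the annotated start sites, at chr18:56527096-56527185 (plus strand) for Cd74, chr20:4515291-4515380 (plus) for RT1-Da, chr20:4560228-4560317 (minus) for RT1-Db1, chr20:4576939-4577028 (plus) for RT1-Ba and chr20:4604165-4604254 (minus) for RT1-Bb.
Cd74: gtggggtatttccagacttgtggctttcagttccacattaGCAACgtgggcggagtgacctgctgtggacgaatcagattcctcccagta
RT1-Da: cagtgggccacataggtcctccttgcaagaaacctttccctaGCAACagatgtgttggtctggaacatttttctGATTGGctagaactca
RT1-Db1: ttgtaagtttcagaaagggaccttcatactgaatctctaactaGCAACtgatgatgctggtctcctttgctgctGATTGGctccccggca
RT1-Ba: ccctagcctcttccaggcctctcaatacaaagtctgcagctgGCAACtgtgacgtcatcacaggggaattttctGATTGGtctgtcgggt
RT1-Bb: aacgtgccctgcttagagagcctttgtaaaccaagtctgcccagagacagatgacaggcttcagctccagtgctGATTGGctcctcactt

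All 5 genes matched a window, which runs from 250 bases before to 50 after the start site. An X core followed by a Y core 15 to 40 bases on, on 1 strand, was found in RT1-Da, RT1-Db1 and RT1-Ba, with 27, 26 and 27 bases between the cores. Both strands of all 33469 windows were searched, and 143 of them (0.427%) held such a pair, which also included RT1-DOa and RT1-DOb, the chains of the DO molecule. Cd74 matched the exact letters of the X core alone, a motif present in 35.1% of windows. RT1-Bb matched the exact letters of the Y core alone, present in 14.8%. A box spelled otherwise was not searched for, so these genes are not shown to lack the other box. None of the 5 held the interferon gamma activated site TTCNNNGAA, which was present in 8.87% of windows. A match is a run of letters, not a measured binding site.

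**Figure D1:**
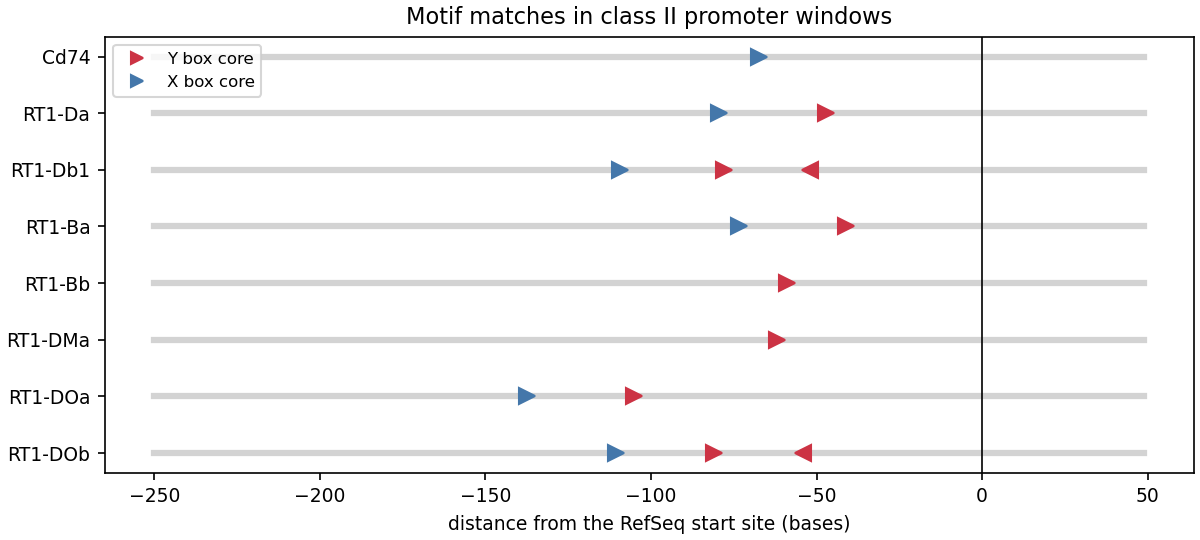
Matches of the X box core (blue) and the Y box core (red) in the promoter windows of the 5 genes and of RT1-DMa, RT1-DOa and RT1-DOb, by distance from the RefSeq start site in bases. Arrowheads point along the strand of the match; RT1-Da, RT1-Db1 and RT1-Ba hold the X core 26 or 27 bases upstream of the Y core.

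Each array gave a scaled signal and a detection call for every probe set, and between 35.6% and 46.5% of the 8740 were called present on an array. A floor of 160.8, set at the median absent signal, was applied, which is 7.33 on the log2 scale. Neuronal transcripts were read in all groups, Snap25 and Gria1 on all 29 arrays and Camk2a on 3 of 9 arrays in young, 7 of 10 in mid-aged and 5 of 10 in aged rats, though these mark forebrain neurons in general and not CA1. Of 6 neuronal genes 0 were past the threshold in any comparison of ages by limma (1 at an unadjusted p under 0.05, mid-aged against young). The column names inside the deposited files come in a longer and a shorter style. The 9 young arrays split into 4 and 5, the mid-aged into 6 and 4, and all 10 aged arrays have the longer style. The labels do not say what this split stands for. By their correlation with the other arrays, 6 were least like the rest (Aged 3, 4 and 8, Mid-Aged 1 and 8, and Young 4).

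Present calls on 9 or more of the 29 arrays were required for the fit, and 4 of the 16 probe sets met this, 1 each for Cd74, RT1-Da, RT1-Db1 and RT1-Bb. The other 12 did not, and 10 of the 16 were never called present. A probe set of Cd74 and 3 of RT1-Bb lay at the floor on all 29 arrays. RT1-Da and RT1-Db1 had enough present calls on the aged arrays alone (10 and 9), and Cd74 had 8 of its 11 there, so the count of 4 says nothing about the 16.

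Cd74, whose product chaperones the class II chains, had the widest difference between young and aged of the 4. On the young arrays its brighter probe set (X13044_at) lay at 7.33 (lowest), 7.33 (median) and 8.18 (highest) on the log2 scale, and it was called present on 0 of 9. On the mid-aged arrays it lay at 7.33, 8.01 and 9.59 and was called present on 3 of 10. On the aged arrays it lay at 8.34, 9.21 and 10.31 and was called present on 8 of 10. Every aged array stood above every young array, whereas the mid-aged arrays ran from the floor to above the aged median. As signals, the medians were 124 in young, 259 in mid-aged and 593 in aged.

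The mean log2 level of Cd74 was 7.54 ± 0.35 (SD, n = 9) in young, 8.18 ± 0.82 (SD, n = 10) in mid-aged and 9.17 ± 0.59 (SD, n = 10) in aged. Aged exceeded young by 1.63 ± 0.27 (SE of the limma fit) and mid-aged by 1.00 ± 0.26, and mid-aged exceeded young by 0.64 ± 0.27. Since no young array had a detected signal and 5 of 9 lay at the floor, the aged to young ratio depends on what stands for an undetected signal. With signals below the floor raised to it, the aged level was 3.10-fold higher. Where each young array was given the higher of its own signal and the lowest signal called present on that array, the ratio was 3.71-fold. The size of this difference follows the floor, with 0.64 at a floor raised to the 75th percentile of absent values, 2.28 at the 25th percentile and 2.64 at a floor of 1 unit. Its sign was the same in all.

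The other Cd74 probe sets were dimmer. X13044_g_at was at the floor on all 9 young arrays and on 8 of 10 mid-aged arrays, and lay at 7.33, 8.50 and 10.04 on the aged arrays, where it was called present on 1. X14254cds_g_at was also at the floor on all 9 young arrays and reached 9.48 on an aged array, without a present call on any array. On these 2 dimmer probe sets 7 and 6 of 10 aged arrays stood above every young array. They were not always the arrays highest on X13044_at, since Aged 8, the third on that probe set, lay at the floor on X13044_g_at.

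RT1-Da, the alpha chain of RT1-D, was the member detected most often. The signals of M15562_g_at ran from 486 through a median of 731 to 918 on the young arrays, where it was called present on 7 of 9. They ran from 537 through 868 to 1922 on the mid-aged arrays, with 9 of 10 called present. They ran from 1004 through 1445 to 2565 on the aged arrays, with 10 of 10 called present. All 10 aged arrays lay above all young arrays, 5 of 10 mid-aged arrays did so, and 2 of 10 aged arrays exceeded the highest mid-aged one.

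On the log2 scale the means of RT1-Da were 9.44 ± 0.30 (SD, n = 9), 9.74 ± 0.54 (SD, n = 10) and 10.57 ± 0.41 (SD, n = 10) from young to aged. The aged mean exceeded the young by 1.13 ± 0.19 (SE), a 2.18-fold difference, and the mid-aged by 0.83 ± 0.18, while mid-aged exceeded young by 0.30 ± 0.19. The second probe set of RT1-Da (M15562_at) was never called present, and its means were 8.21, 8.61 and 9.32. Both probe sets are named for 1 source sequence, so they are not independent measurements of the gene.

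RT1-Db1, the beta chain that pairs with RT1-Da, showed a smaller difference with overlap. X53054_g_at lay at 7.52, 8.67 and 9.38 on the young arrays, at 8.05, 9.04 and 9.41 on the mid-aged and at 8.85, 9.33 and 9.83 on the aged. It was called present on 1 of 9, 3 of 10 and 9 of 10 arrays. Only 4 of 10 aged arrays exceeded the highest young one. The means were 8.62 ± 0.55 (SD, n = 9), 8.93 ± 0.38 (SD, n = 10) and 9.34 ± 0.28 (SD, n = 10), and aged exceeded young by 0.72 ± 0.18 (SE), or 1.65-fold.

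The young arrays of RT1-Db1 divided by column-name style. The 4 young arrays of the longer style averaged 8.18 and the 5 of the shorter style 8.97, beside 9.34 for the aged arrays, which all have the longer style. Within the longer style alone the aged minus young difference was 1.16, and in the authors' deposited value table of the same arrays it was 0.14. The part of the style in the difference was not tested. For Cd74 the young arrays averaged 7.73 in the longer and 7.38 in the shorter style, for RT1-Da 9.56 and 9.34, and in both genes the longer style stood above the shorter, unlike RT1-Db1. The other probe set of RT1-Db1 (X53054_at) was near the floor at every age, at 7.41, 7.46 and 7.37.

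The RT1-B chains differed less between the ages than Cd74 and RT1-Da. RT1-Ba, the alpha chain, was read best by K02815_s_at, which was bright but seldom called present (0 of 9, 0 of 10 and 1 of 10 arrays). It lay at 9.89, 10.22 and 10.34 on the young arrays, at 9.55, 10.17 and 10.47 on the mid-aged and at 10.21, 10.60 and 10.83 on the aged. In aged rats 9 of 10 arrays exceeded every young array and 8 of 10 every mid-aged array, and the mid-aged mean was the lowest of the 3 ages. The means were 10.17 ± 0.15 (SD, n = 9), 10.09 ± 0.35 (SD, n = 10) and 10.57 ± 0.18 (SD, n = 10) and aged exceeded young by 0.40 on the log2 scale. With 1 present call on the 29 arrays, no fold is given.

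The remaining RT1-Ba probe sets did not share 1 direction. X07551cds_s_at averaged 7.94, 7.63 and 8.30, and M22366_at averaged 9.00, 8.91 and 8.79, both without a present call. RT1-Bb, the beta chain of RT1-B, was detected at all ages by X56596_at, with 5 of 9, 6 of 10 and 8 of 10 arrays called present. It lay at 8.38, 8.96 and 9.58 in young, 8.24, 8.83 and 9.51 in mid-aged and 8.19, 9.07 and 9.68 in aged. The groups overlapped over nearly their whole range. The aged minus young difference was 0.18 ± 0.18 (SE), about the size of its error, and the mid-aged minus young difference was -0.08 ± 0.18.

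Ordered by the aged minus young difference, the 4 probe sets in the fit ran from Cd74 (1.63) through RT1-Da (1.13) and RT1-Db1 (0.72) to RT1-Bb (0.18). Their median was 0.92, beside -0.02 over all 3861 probe sets tested. Limma, adjusted by Benjamini-Hochberg over all of these, called 3 of the 4 higher in aged than in young, where 1.19% of all probe sets tested were called higher. Between mid-aged and young 0 of the 4 were called, beside 0.414% of all, and between aged and mid-aged 0 of the 4, beside 0.0518%. Cd74 and RT1-Da were the members with every aged array above every young array. This held for 0.172% of all 8740 probe sets and for 0.337% of the 3861 tested. The choice of the genes fixed these counts, and nothing is read from them. Over all 16 probe sets the aged mean was above the young in 10, below in 2 and equal, at the floor, in 4.

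**Figure D2:**
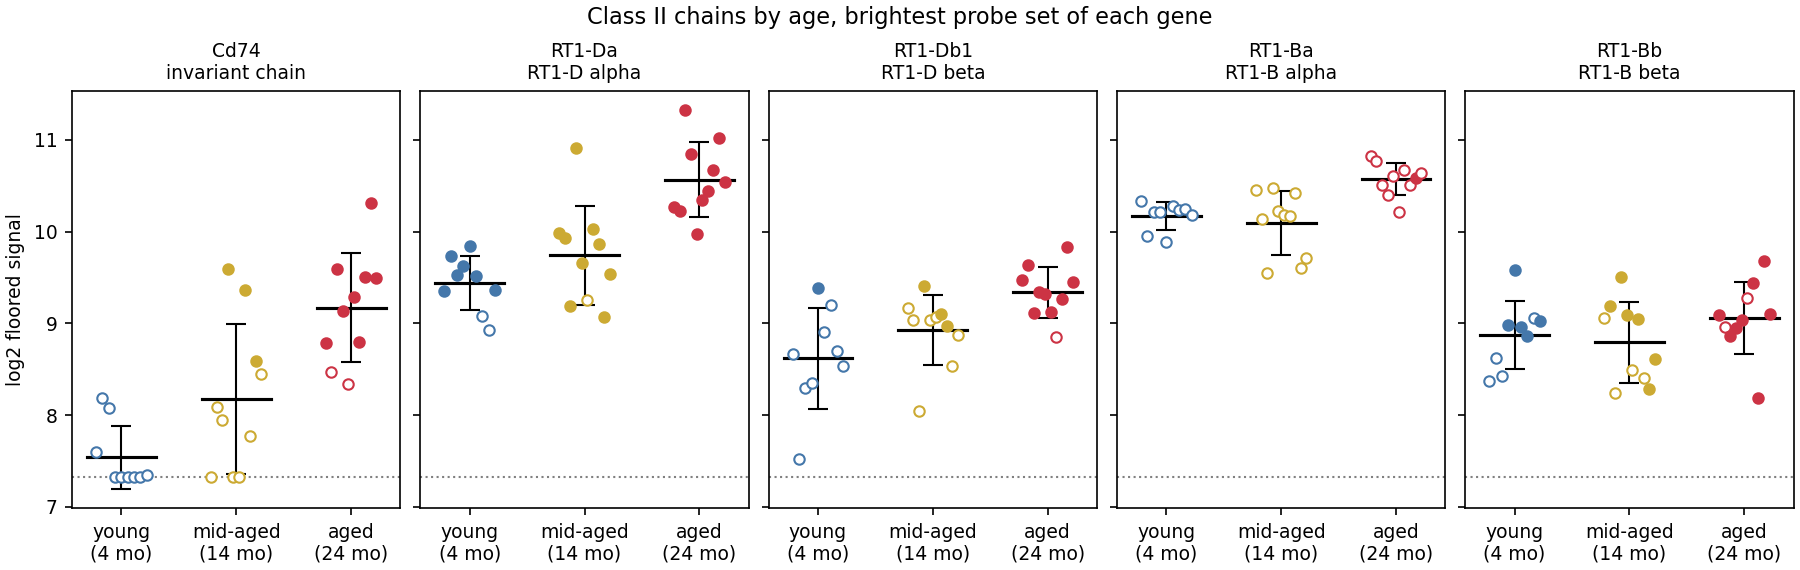
Log2 floored signal of the brightest probe set of each gene on every array, by age. Filled points were called present and open points were not; lines and bars are the mean and SD of 9 young, 10 mid-aged and 10 aged arrays, and the dotted line is the floor at 7.33. Cd74 and RT1-Da show no overlap of aged and young arrays, and RT1-Bb overlaps almost fully.

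**Figure D3:**
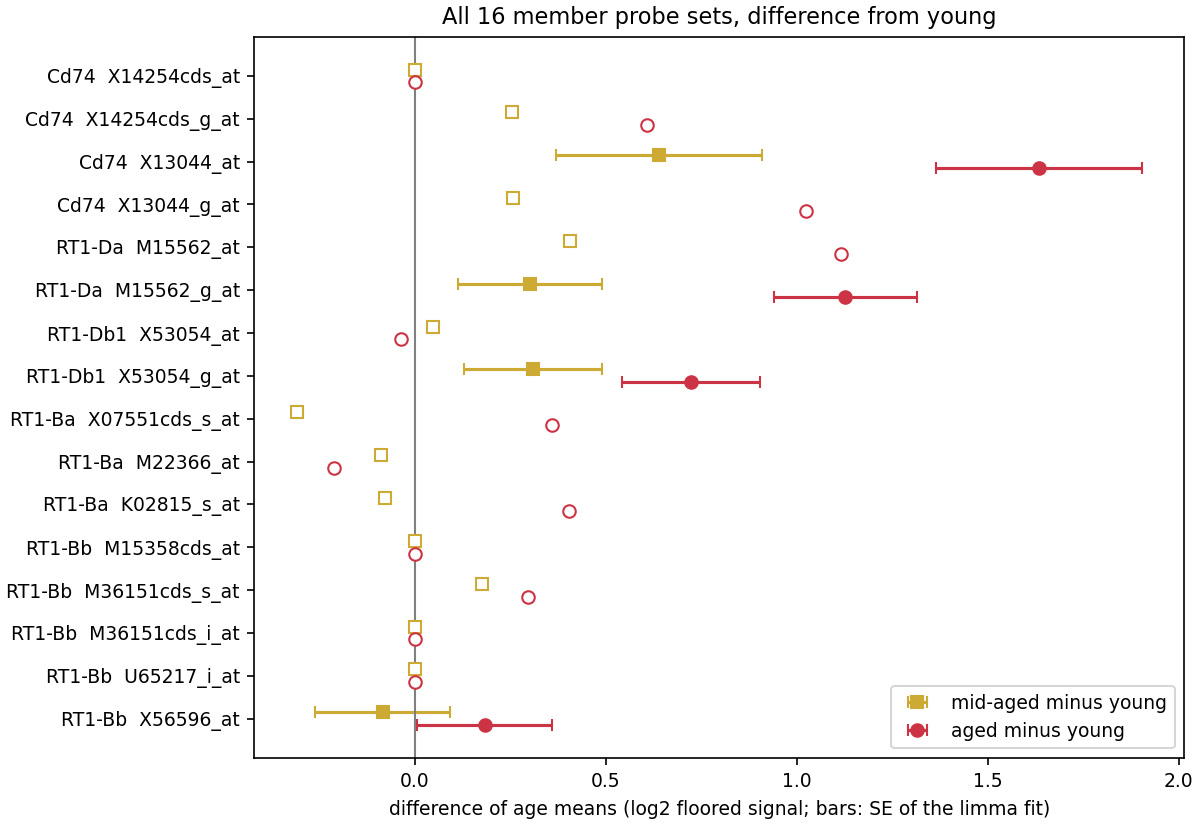
Difference of the mid-aged mean (squares) and of the aged mean (circles) from the young mean on the log2 scale, for all 16 probe sets. Filled symbols are the 4 probe sets in the fit, with the SE of the limma fit as bars; open symbols are the 12 that were not tested. The aged differences run from 1.63 for Cd74 to -0.21 for a probe set of RT1-Ba.

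The position of the mid-aged mean between the other ages uses the same levels and is likewise a description. Set against the middle of the young and aged means, the mid-aged mean of Cd74 lay at -0.18 ± 0.23 (SE of the limma fit), that of RT1-Da at -0.26 ± 0.16, that of RT1-Db1 at -0.05 ± 0.15 and that of RT1-Bb at -0.18 ± 0.15. All 4 values were negative, and the sign turned with array weights for Cd74, and for RT1-Db1 in the longer style alone and without Mid-Aged 3. For Cd74 it turned also with the 6 least-like arrays left out. Of all 3861 probe sets 0 (0%) departed from the middle by limma at an adjusted p under 0.05, and 201 had an unadjusted p under 0.05.

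The arrays of 1 age also differed among themselves, and the genes could be compared array by array within an age. For the aged and for the mid-aged arrays, 31 relations each were computed, 10 of them between the 5 genes, with Pearson's r and Spearman's rho, two-sided permutation tests and Benjamini-Hochberg adjustment over the 31. No relations were computed over the young arrays. There Cd74 and RT1-Ba were called present on 0 of 9 and RT1-Db1 on 1 of 9. Detection was not low for all, since RT1-Da was called present on 7 of 9 and RT1-Bb on 5 of 9.

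Among the 10 aged arrays Cd74 and RT1-Da varied together. Pearson's r was 0.793 (two-sided permutation p = 0.00631, adjusted p = 0.0489) and Spearman's rho was 0.891 (permutation p = 0.00105, adjusted p = 0.0325). Without the 2 arrays farthest from the median of Cd74, r was 0.691. Aged 9 was highest for Cd74 and the second for RT1-Da, Aged 3 was highest for RT1-Da and the second for Cd74, and Aged 5 was the lowest for both. Of the 5 highest aged arrays for each gene, 4 were shared. The 3 aged arrays least like the rest (Aged 3, 4 and 8) ranked 1, 3 and 4 for RT1-Da and 2, 6 and 3 for Cd74 from the highest, and Aged 3 and Aged 4 had the lowest summed neuronal signal of their age, 26811 and 25600 beside a median of 41927. Without these 3, over 7 arrays, r was 0.940 (exact permutation p = 0.00258, adjusted p = 0.0738) and rho 0.964 (exact permutation p = 0.00278, adjusted p = 0.0861). The adjusted p rests on single arrays, and passed the threshold in 3 of the 10 sets of 9 arrays. It was above it without Aged 1, 2, 5, 6, 7, 8 or 9, at up to 0.139, with r between 0.724 and 0.858. In the authors' deposited value table r was 0.943 (permutation adjusted p = 0.00248).

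No relation of Cd74 with another chain passed in aged rats. Cd74 and RT1-Db1 had r = 0.264 (permutation adjusted p = 0.895), and Cd74 and RT1-Ba had r = -0.363 (permutation adjusted p = 0.714). RT1-Da and its partner chain RT1-Db1 had r = 0.02 (permutation adjusted p = 0.952). The 10 pairs of genes had a median r of 0.110, with 7 of 10 above 0.

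Within the aged group RT1-Da and Cd74 also moved with Fcgr2b, a low-affinity Fc receptor of myeloid and B cells. Its r was 0.854 with Cd74 (permutation adjusted p = 0.0339, rho 0.794 with adjusted p = 0.0696) and 0.804 with RT1-Da (permutation adjusted p = 0.0489, rho 0.661 with adjusted p = 0.201). Without the 2 arrays farthest from the median, these were 0.585 and 0.598. The call of Cd74 with Fcgr2b was lost without Aged 1, 5, 7 or 9 (r from 0.743 to 0.925), and that of RT1-Da without Aged 1, 2, 3, 5, 7, 8 or 9 (r from 0.722 to 0.850). In the authors' deposited value table neither passed, with r of 0.583 and 0.538 and an adjusted p of 0.364 for both by permutation. The microglial markers Aif1 and C1qb did not pass with either gene. Aif1 had r = 0.208 with Cd74 and 0.065 with RT1-Da (permutation adjusted p = 0.913 and 0.928). C1qb had r = 0.350 with Cd74 and 0.680 with RT1-Da (permutation adjusted p = 0.714 and 0.125). Hbb, a haemoglobin chain that reports red cells, had r = -0.117 with Cd74 (permutation adjusted p = 0.913) and -0.154 with RT1-Da (permutation adjusted p = 0.913). Among the repeat probe sets, Cd74 and its X14254cds_g_at correlated at 0.875 (permutation adjusted p = 0.0136), a call lost without Aged 9 (adjusted p = 0.0853). X14254cds_g_at lay at the floor on 4 of 10 aged arrays. In the deposited value table this r was 0.453 (permutation adjusted p = 0.398). The repeats X13044_g_at of Cd74 (r = 0.749) and M15562_at of RT1-Da (r = 0.776) did not pass (permutation adjusted p = 0.0570 and 0.0531).

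Among the 10 mid-aged arrays other members varied together, though not all were detected. RT1-Ba was called present on 0 of these arrays and RT1-Db1 on 3, beside 9 for RT1-Da and 6 for RT1-Bb. Relations of RT1-Ba and RT1-Db1 thus rest mostly on signals not called present. RT1-Db1 and RT1-Ba had r = 0.855 (permutation p = 0.00020, adjusted p = 0.0062), RT1-Da and RT1-Bb r = 0.851 (permutation p = 0.00130, adjusted p = 0.0201), and RT1-Db1 and RT1-Bb r = 0.776 (permutation p = 0.00227, adjusted p = 0.0235). By Spearman's rho they stood at 0.830, 0.782 and 0.745, with permutation adjusted p of 0.0783, 0.0783 and 0.0882, so none passed by rank. Without the 2 farthest arrays, r was 0.694, 0.722 and 0.742. RT1-Da also followed B2m, the light chain of class I molecules, at r = 0.776 (permutation adjusted p = 0.0469) and 0.562 without the 2 farthest arrays, with rho 0.685 (permutation adjusted p = 0.118).

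No relation of Cd74 with a chain passed in mid-aged rats. Its r with RT1-Da was 0.505 in mid-aged rats (permutation adjusted p = 0.298), and -0.363 without the 2 farthest arrays. The 10 pairs had a median r of 0.701, from -0.07 to 0.855. The difference between the mid-aged and the aged correlations was not tested.

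The extremes of the mid-aged pattern came from few arrays. Of the 12 member probe sets above the floor on any mid-aged array, Mid-Aged 4 was the highest on 9. Of the 6 above the floor on all mid-aged arrays, Mid-Aged 3 was the lowest on 4. The 4 probe sets in the fit deviated from their mid-aged means by 0.94 on average on Mid-Aged 4 and by -0.55 on Mid-Aged 3. The median deviation of all 3861 probe sets tested was 0.01 on both arrays. Without Mid-Aged 3 or without Mid-Aged 9 the call of RT1-Db1 with RT1-Ba was lost (r from 0.828 to 0.904, adjusted p up to 0.0594). The call of RT1-Da with RT1-Bb was lost without Mid-Aged 3, 4 or 9 (r from 0.779 to 0.925). RT1-Db1 with RT1-Bb lost its call without Mid-Aged 1, 2, 3, 4, 5, 7 or 9 (r from 0.710 to 0.841), and RT1-Da with B2m without Mid-Aged 1, 3, 4, 6, 7, 8 or 9 (r from 0.612 to 0.841). The r of each relation thus stayed above 0.6 while its adjusted p crossed the threshold. In the authors' deposited value table these 4 relations had r of 0.342, 0.433, 0.07 and 0.401, and none passed (permutation adjusted p from 0.493 to 0.981).

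**Figure D4:**
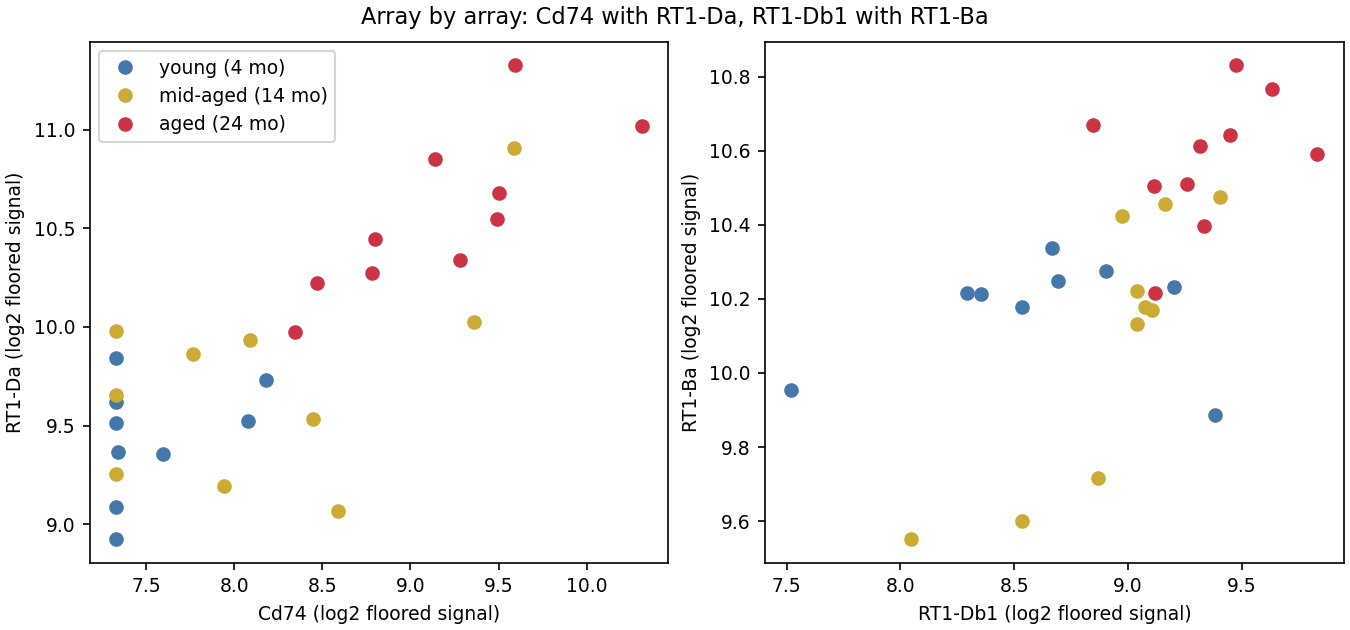
Log2 floored signals of Cd74 against RT1-Da (left) and of RT1-Db1 against RT1-Ba (right), 1 point for each of the 29 arrays, coloured by age. In the left panel the 10 aged arrays rise together (r = 0.793). There 5 of 9 young and 3 of 10 mid-aged arrays lie at the Cd74 floor. In the right panel the 10 mid-aged arrays rise together (r = 0.855), with 3 of them low for RT1-Ba.

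Over all 29 arrays, the genes most like Cd74 and RT1-Da among 2403 others were ranked by Pearson's r, as a description. The arrays share the age difference, so the r within ages, after each age mean was taken away, stands beside it. RT1-CE12, a class I gene, led both lists, at 0.808 with Cd74 (0.570 within ages) and 0.835 with RT1-Da (0.703 within ages). The class I genes are a family of close copies, which this probe set may not tell apart. For Cd74 there followed Mag, a myelin protein (0.773, and 0.456 within ages), Cryab, a small heat shock protein (0.726, and 0.502), Ptgds, a prostaglandin synthase (0.711, and 0.296), C1qb (0.701, and 0.242) and Fcgr2b (0.691, and 0.306). For RT1-Da there followed C1qb, a chain of complement C1q (0.821, and 0.564), Fxyd1, a regulator of the sodium pump (0.762, and 0.674), S100a4, a calcium-binding protein (0.749, and 0.711), the protease Ctss (0.747, and 0.445) and Grn, the progranulin precursor (0.737, and 0.626).

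Of 42 other genes of the class II pathway and its neighbours, 33 had a probe set and 20 were tested. Aged against young, 2 rose and 0 fell by limma, beside 1.66% of all probe sets tested in either direction, and 13 of 20 differences were above 0 with a median of 0.14. Between mid-aged and young, and between aged and mid-aged, 0 of the 20 passed by limma, with 3 and 2 at an unadjusted p under 0.05. The steps of the pathway differed in how many of their genes could be read.

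Of the lysosomal proteases and their inhibitors, 7 were on the array and all of these were tested. Each had a higher mean in aged than in young rats, with a median difference of 0.18, and 1 passed. It was Ctss, cathepsin S, which cleaves the invariant chain in antigen-presenting cells. Ctss went from 14.20 ± 0.09 (SD, n = 9) in young through 14.38 ± 0.19 (SD, n = 10) to 14.59 ± 0.14 (SD, n = 10) in aged. It rose by 0.39 on the log2 scale (SE 0.08, limma adjusted p = 0.00235), and the lowest aged array (14.43) lay above the highest young array (14.35). The differences of Ctsl (0.20, limma adjusted p = 0.184), Ctsb (0.20, limma adjusted p = 0.249) and Cst3, the inhibitor cystatin C (0.18, limma adjusted p = 0.371), did not pass.

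Of the peptide loading genes 2 were tested and 0 passed by limma, nor did any have an unadjusted p under 0.05 between aged and young. RT1-DMa, a chain of the DM molecule that loads peptide, was called present on every array of every age and differed by -0.03 (limma adjusted p = 0.910). Its partner RT1-DMb differed by 0.14 (limma adjusted p = 0.688), with present calls on 1 of 9 arrays in young, 3 of 10 in mid-aged and 7 of 10 in aged rats. Among aged arrays RT1-DMb and RT1-Da had r = 0.767 (permutation adjusted p = 0.0546), which did not pass. Spearman's rho for this pair was 0.661 (permutation adjusted p = 0.201). In the authors' deposited value table its r was 0.517 (permutation adjusted p = 0.364). Without the 3 aged arrays least like the rest, r was 0.540 and rho 0.107. RT1-DOa and RT1-DOb, which restrain DM, were not detected often enough to be tested.

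Of the genes of transcriptional control 4 were tested and 0 passed by limma, again with 0 at an unadjusted p under 0.05 between aged and young. Rfx5, a subunit of the X box factor, was called present on all young arrays and differed by -0.12 (limma adjusted p = 0.661). Nfyb and Nfyc, subunits of the Y box factor, differed by 0.00 and -0.17 (limma adjusted p = 0.368 for Nfyc). Ciita, Rfxank and Rfxap had no probe set with a single symbol. Of the interferon gamma pathway, Ifng was called present on 0 arrays, and the receptor chain Ifngr1 (0.28, limma adjusted p = 0.692), Jak2 (-0.25, limma adjusted p = 0.266) and Irf1 (0.15, limma adjusted p = 0.605) did not pass.

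Genes of the class I side and a group of partner receptors and ligands completed the list. B2m rose from 12.82 ± 0.16 (SD, n = 9) through 13.08 ± 0.18 (SD, n = 10) to 13.22 ± 0.26 (SD, n = 10), by 0.40 from young to aged (SE 0.10, limma adjusted p = 0.0245). That call was lost without Aged 3, 4 or 8 or Young 6 or 9, and with the column-name style as a term, in the longer style alone, with median scaling and with the 6 least-like arrays left out. Cd4, Cd40 and Cd80 were called present on 0 arrays. Mif, a ligand of the invariant chain, and the costimulator Cd86 differed by -0.07 and -0.16 (limma adjusted p = 0.712 and 0.531). The tested Cd86 probe set lay near the floor, with means of 7.53 in young, 7.43 in mid-aged and 7.37 in aged. It was called present on 6 of 9, 5 of 10 and 1 of 10 arrays.

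**Figure D5:**
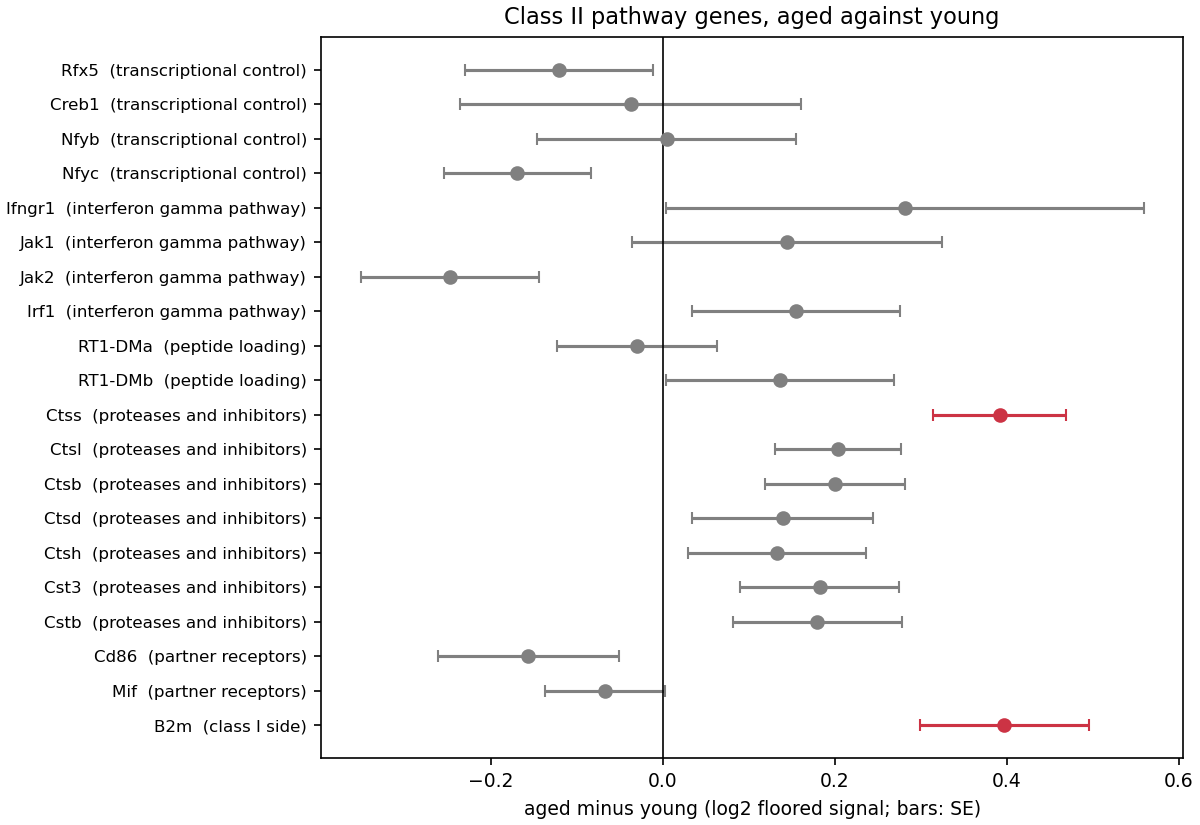
Aged minus young difference on the log2 scale for the 20 tested genes of the class II pathway, with the SE of the limma fit as bars. Red points passed an adjusted p of 0.05 (Ctss at 0.39 and B2m at 0.40) and grey points did not; all 7 proteases and inhibitors lie above 0.

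Markers of the cell types that could hold these transcripts were measured beside them. Of the 15 listed genes of microglia and macrophages, 10 were on the array, 4 were tested and 3 rose from young to aged. C1qb rose by 0.62 (limma adjusted p = 0.00010), Fcgr2b by 0.79 (limma adjusted p = 0.00064) and Aif1, the microglial protein Iba1, by 0.48 (limma adjusted p = 0.0312), while Cd14 differed by -0.32 (limma adjusted p = 0.284). A dimmer tested probe set of Aif1 (U17919_s_at) rose by 0.33 and did not pass (limma adjusted p = 0.0840). Another, U33471_at, was not tested and averaged 8.06 in young and 8.05 in aged. The call of Aif1 was lost without Aged 1, 3, 9 or 10 or Young 2, 4, 5, 8 or 9. It was also lost with no filter, with style as a term and in the longer style alone. Fcgr2b and Ctss also lost theirs in the longer style alone (limma adjusted p = 0.0736 and 0.170), whereas C1qb kept its call in all settings run. Each aged array has the longer style, and the part of the style was not tested. The summed signal of the 10 genes ran from 6006 to 7663 in young, 6793 to 8643 in mid-aged and 7927 to 9714 in aged. All aged arrays thus lay above all young ones. C1qb is the brightest of the 10, with mean log2 levels of 11.17 in young and 11.79 in aged, and weighs most in that sum. The sum also holds C1qc, called present on 0 arrays, at 10.20 in young and 10.30 in aged. Csf1r was called present on 0 arrays and Itgam on 1. The part of a change in these cells in the class II levels was not tested.

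Markers of other cells that can carry class II differed in how far they were detected. Of the 11 T and NK cell genes on the array, 9 were called present on 0 arrays, among them Cd3d, Cd3g and Cd8a, which define T cells. Gzmb, a granzyme, had present calls on 2 of 9 arrays in young, 4 of 10 in mid-aged and 5 of 10 in aged rats and differed by 0.01 between aged and young (limma adjusted p = 0.991), and Klrd1 was called present on 1 array. The 11 genes summed to 2027 to 2894 in young, 2054 to 3216 in mid-aged and 2013 to 2917 in aged.

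Of the 2 B cell genes, Cd79b was called present on 0 arrays, while Cd24, which neural cells also express, was present on all 29 and made up most of a sum of 2853 to 4058 in young, 2890 to 4029 in mid-aged and 2814 to 4169 in aged. A dimmer probe set of Cd24 rose by 0.79 (limma adjusted p = 0.00121), while its brightest differed by 0.05 (limma adjusted p = 0.849). Of the 4 genes of monocytes and granulocytes, S100a8, S100a9 and Ccr2 were present on 0 arrays and Lyz2, a lysozyme, on all 29, with a difference of 0.04 (limma adjusted p = 0.919). Their sums ran from 1999 to 2407 in young, 1451 to 2550 in mid-aged and 1622 to 3032 in aged. Batf3 was the dendritic cell gene on the array, and it was called present on 0 arrays.

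The borders of the brain also hold macrophages, and their tissue was read through 7 genes of choroid plexus and meninges. These summed to 4346 to 7776 in young and 3064 to 6844 in aged. In mid-aged rats the sum ran from 4030 to 28882, the highest on Mid-Aged 9, where Ttr, the choroid plexus transthyretin, lay at 14.57 on the log2 scale. The next mid-aged Ttr level was 10.79, on Mid-Aged 3, below the highest young level (11.16) and the highest aged level (11.81). The marker sum of Mid-Aged 3 (5876) was below that of Mid-Aged 5 (6563). Mid-Aged 3 and Mid-Aged 9 are also the 2 arrays without which RT1-Db1 with RT1-Ba lost its call, and on both RT1-Db1 and RT1-Ba were low. The part of choroid tissue in those relations was not tested. From young to aged 0 of the 5 tested genes passed on their brightest probe set, though a dimmer probe set of Col1a1, a collagen of the meninges, fell by 0.57 (limma adjusted p = 0.0101). Of 5 vessel genes 2 were tested and 0 passed by limma, and they summed to 1594 to 2223 in young and 1142 to 2863 in aged.

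Blood markers moved with age too. The 2 tested haemoglobin genes rose from young to aged, Hbb by 1.30 (limma adjusted p = 0.000415) and Hbb-b1 by 0.93 (limma adjusted p = 3.26e-05), and the summed signal of 3 blood genes ran from 5418 to 13390 in young and from 14823 to 30434 in aged. The part of blood in the class II levels was not tested. Within the aged group, as given above, Hbb had an r of -0.117 with Cd74.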

How the data were processed

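For every array the authors deposited the signal intensity of 8799 probe sets and a call of present, marginal or absent, as the file headers name them. Its software was not given in the sources used here. The call letters are the authors' other deposited column that was used. A value table of the series, deposited as an intensity with 18.5% to 23.8% of values below 0, served as an alternative. The 1 column repeating another young array was not used.

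Without the 59 controls, arrays were scaled to 1 trimmed mean (2% off each end, factors 0.999 to 1.00), floored at 160.8 and logged (log2). The 3861 probe sets present on at least 9 of 29 arrays were fitted over the 3 ages with limma 3.58.1 in R 4.3.3, and p-values were two-sided and adjusted by Benjamini-Hochberg (threshold 0.05). Each gene is represented by its brightest tested probe set (RT1-Ba by its brightest). Within-age correlations used 100000 permutations for 10 arrays. The members, gene lists, motifs and tests were chosen with earlier results of these data known. The genes named are the members, the pathway and marker list genes and the 6 genes most like Cd74 and RT1-Da. The limma step was tested on simulated data.

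Alternatives covered scaling, the filter, the floor, the deposited table, array weights, the replicate block, name style and leaving out arrays. Sequences are from RefSeq (GRCr8), and no probe coordinates are given.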

Additional observations from a re-analysis of the deposited data

Results flagged for a closer look

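On 1 mid-aged array, Mid-Aged 4, RT1-Da stood apart from the rest of its age. Its log2 level was 10.91, and the gap to the next array at 10.02 took up 0.480 of the range over the 10 mid-aged arrays, past the critical value of Dixon's test for 10 samples (0.466). In all, 28 groups of member values were examined, and chance flags about 1 in 20, or about 1.4 of them.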

How the results depend on the processing

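Leaving out 1 array at a time gave ranges. The aged minus young difference lay between 1.51 and 1.73 for Cd74, 1.04 and 1.19 for RT1-Da, 0.58 and 0.82 for RT1-Db1, and 0.11 and 0.28 for RT1-Bb. The departure from a straight line lay between -0.34 and -0.08 for Cd74, -0.39 and -0.19 for RT1-Da, -0.12 and 0.04 for RT1-Db1, and -0.25 and -0.11 for RT1-Bb, with 0 calls over all probe sets. Counts of calls lay between 52 and 84 (aged against young, 64 with all arrays), 8 and 22 (mid-aged against young, 16) and 0 and 4 (aged against mid-aged, 2), and the pathway count between 1 and 2. The r of Cd74 with RT1-Da lay between 0.724 and 0.858 in aged and 0.0814 and 0.660 in mid-aged rats.

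The floor and the source of the values moved Cd74 most, to 0.64 (75th percentile), 2.28 (25th percentile), 2.64 (floor of 1) and 2.71 (deposited value table). The deposited value table gave 1.83 for RT1-Da and 0.14 for RT1-Db1, 8 calls for mid-aged against young and 0 for aged against mid-aged. The longer name style alone gave 1.16 for RT1-Db1, and counts of 16 (aged against young), 0 (mid-aged against young) and 0 (pathway). With style as a term the pathway count was 1 and the straight-line count 1. Array weights gave 326 and 87 calls against young. Without the 6 arrays least like the rest there were 131, 63 and 0 calls for the 3 pairs of ages and 1 for the pathway, with median scaling 1 for the pathway, and with no filter 0 for aged against mid-aged. For Cd74 with RT1-Da, unlogged signals gave r = 0.698 in aged (permutation adjusted p = 0.129), leaving out the 3 aged arrays least like the rest, chosen after seeing the data, 0.940 (exact permutation adjusted p = 0.0738), and the 75th percentile floor 0.754 in mid-aged rats (permutation adjusted p = 0.0437). The causes were not tested, beyond fewer arrays or probe sets where these were left out.

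No called result changed sign. Among values with no call, the sign differed from the main value in 2 settings each for the departure of Cd74 (range -0.54 to 0.06) and of RT1-Db1 (-0.13 to 0.20) from the middle of young and aged. For mid-aged minus young it did so in 3 settings for RT1-Bb (-0.16 to 0.04) and in 1 for RT1-Db1 (-0.09 to 0.78). Over all settings run, aged minus young was above 0 for each of Cd74 (0.64 to 2.71), RT1-Da (0.97 to 1.83), RT1-Db1 (0.14 to 1.16) and RT1-Bb (0.11 to 0.34). With a filter of 20 present calls only RT1-Da of the 4 was tested. Samples of different ages were also correlated after each age mean was taken away. The 28 same-numbered pairs had r from -0.205 to 0.580 with a median of 0.089, and 13 exceeded 0.1. The 252 differently numbered pairs had r from -0.518 to 0.648 with a median of 0.001, and 81 exceeded 0.1. Whether the replicate numbers pair the samples was not tested. With the replicate block, 77, 13 and 2 probe sets were called, and the differences were 1.70, 1.13, 0.70 and 0.17 for Cd74, RT1-Da, RT1-Db1 and RT1-Bb.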
